A study of Mus musculus with 21 samples.

Results

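The arrays of N202 mammary tumour cells grown repeatedly on bone marrow or on lung were compared between late and early passages. They are 8 of the 21 arrays of the study, chosen by their labels alone: the 4 late arrays are passages 3 and 4 (P3 and P4) on each of the 2 tissues, and the 4 early arrays are passages 1 and 2 (P1 and P2). N202 is a mouse cell line from a mammary carcinoma of FVB-NeuN mice, in which the MMTV promoter drives a rat Her-2/neu transgene, and all the cells, the parental ones (P0) included, carried histone H2B fused to green fluorescent protein. Spheroids of these cells were placed in skinfold chambers of female nude mice, hosts without a thymus, on minced bone marrow or lung of C57BL/6 donors that had regained blood vessels. Each passage lasted 21 days on tissue, so that the early cells had spent 21 or 42 days and the late cells 63 or 84 days there. Between passages the cells were kept in culture under G418, and before RNA was taken they were sorted for the fluorescent protein and expanded in culture again. The RNA was therefore that of cultured cells and not of the chambers. The study also had 2 arrays of the parental cells, 8 of brain P1 to P4 with 2 arrays at each passage, 1 of breast tissue P1 and 2 of a repeated brain experiment.

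Each tissue had a single lineage and each of its passages a single array. P2 was grown from P1, P3 from P2 and P4 from P3, so the passages of a tissue are successive samples of 1 population and not independent adaptations. Days on tissue, time in culture and the number of G418 selections all increased together along the passages and cannot be told apart. In the same way, fewer cells that express a gene and less RNA of it per cell cannot be told apart in these bulk samples.

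Tumour cells that seed an organ meet a matrix, a supply of oxygen and a set of soluble signals that differ from those of the breast. They attach through integrins and syndecans, cut the matrix with secreted metalloproteinases of the Adamts and Mmp families, which Timp proteins hold in check, and draw blood vessels and leukocytes with growth factors and chemokines. Bone marrow is rich in blood-forming cells and lung in air-exposed epithelium, and both are sites to which breast cancers spread.

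The identity of the cells was first read from their markers. Erbb2, the mouse counterpart of the transgene, had log2 levels of 9.83, 10.10, 9.21 and 9.99 at bone marrow P1 to P4 and of 10.30, 10.45, 10.99 and 10.24 at lung P1 to P4. The late-early difference was -0.06 ± 0.23 (log2, SE), with overlapping groups. Whether the probes of this gene also read the rat transgene is not given in the sources used here. Krt8 and Epcam, a keratin of simple epithelia and an epithelial adhesion molecule, were at 12.35 to 13.21 and 10.35 to 10.79 on the 8 arrays. Defining markers of adipocytes and muscle, fibroblasts, lymphocytes, and neurons and glia were above the filter limit on average in 0 of 12, 0 of 15, 0 of 13 and 0 of 13 measured genes. The summed level of the 8 genes of erythroid cells and megakaryocytes was 8.12 to 8.22 (log2) on the early arrays and 8.46 to 9.06 on the late arrays. These ranges did not overlap. The list holds Ppbp, which is described below, and Gp9, at 5.77 to 6.25 early and 6.31 to 7 late. Itga2b had a higher late mean too, while those of Epor, Slc4a1, Klf1, Alas2 and Pf4 were lower late. The part of Ppbp and Gp9 in that result was not tested. The 12 endothelial genes summed to 8.56 to 8.90 early and 8.75 to 8.99 late, and the 15 genes of lung epithelium to 11.48 to 11.87 and 11.82 to 11.90. The 20 entries of macrophages and granulocytes, in which Adgre1 stands more than once, summed to 10.51 to 10.85 and 10.31 to 11. All 3 pairs of ranges overlapped, and 1 of 12, 2 of 15 and 1 of 20 of these entries were above the limit. Cd14, at 9.57 to 10.64, and Aqp5, at 11.15 to 11.62, made up most of their sums, so the overlap says little about the other markers. S100a8 was at 3.98 to 4.73 early and 5.16 to 5.75 late, and Lyz1 at 3.17 to 3.83 and 4 to 4.26. Adgre1 went the other way, with 3.30 to 3.95 and 3.21 to 3.28, also without overlap.

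Tissue separated the arrays more than phase did. Of the variance of the 7378 genes tested, 24.9% lay between the tissues, 10.9% between late and early, 10.3% in the way this difference varied between the tissues and 54% among passages of a phase and tissue, where an even split would give 14.3% to each of the first 3. Correlations between 2 arrays of the same tissue had a median of 0.964 within a phase and 0.968 across phases. Bone marrow P2 was closest to bone marrow P4 and lung P2 to lung P4, but bone marrow P1 and lung P3 were closest to each other across tissues. Lung P1 stood apart, with a lower quartile of 3.88 (log2) against 3.55 to 3.68 on the other arrays and correlations of 0.923 to 0.960.

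No gene passed the test of late against early. At an adjusted p under 0.05 by limma, with tissue as a block, 0 of 7378 genes were called (0%), and the smallest adjusted p was 0.57. At an unadjusted p under 0.05 there were 161 genes (2.18% of those tested). Of these, 103 were higher late (1.4%) and 58 lower (0.786%). The share of 2.18% is below the 0.05 that would be seen on average with no difference in any gene. A difference of 2-fold or more was seen for 16 genes upward (0.217%) and 9 downward (0.122%), and one of 1.5-fold or more for 59 (0.8%) and 35 (0.474%). All 4 late arrays lay above all 4 early arrays for 36 genes (0.488%) and below them for 21 (0.285%). Within each tissue taken alone, both late arrays lay above both early ones for 122 genes (1.65%) and below them for 70 (0.949%). Some genes separate in this way without any difference between the phases, so a lack of overlap describes values and is not a test. A model of all 21 arrays, which takes its spread from the repeat cultures of parental and brain cells, called Ppbp as higher late (0.0136%) and Npr3, Adamts5 and Sirpa as lower (0.0407%). Without lung P1 there were also 0 calls, and the differences of Ltf, Akr1b8, Adamts1 and Npr3 were 1.93, 0.92, -1.11 and -1.37, close to those given below, while that of Mcam was -0.65 in place of -1.06 and that of Fosl1 0.66 in place of 1.03. The genes below are given as values, with adjusted p from 0.57 to 1, and none is called changed.

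Among the genes higher late, Ltf, the iron-binding protein lactoferrin of milk and mucosal secretions, had the lowest p. Its log2 levels on bone marrow were 10, 10.10, 11.48 and 11.14 at P1 to P4, and on lung 8.24, 7.72, 10.92 and 10.40. The late arrays were above the early ones in each tissue and in both pooled, by 1.97 ± 0.29 (log2, SE; 3.92-fold; limma adjusted p = 0.57). The 2 parental arrays, 8.47 and 10.67, spanned much of the same range. Muc20, a mucin of the cell membrane, was at 7.44, 7.54, 8.07 and 8.44 on bone marrow, with 7.41, 7.42, 8.05 and 8.20 on lung. Its groups did not overlap and the 2 tissues ran almost together, with a difference of 0.73 ± 0.12 (1.66-fold).

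Genes of redox defence and of the removal of aldehydes were the next group. Akr1b8, an aldo-keto reductase, stood at 7.17, 7.91, 8.22 and 8.41 on bone marrow against 5.61, 5.72, 6.87 and 6.84 on lung. Each tissue was separated by phase while the pooled groups overlapped, since bone marrow was the higher throughout, and the difference was 0.98 ± 0.17 (1.97-fold). Prxl2a, a redox protein related to peroxiredoxins, stood at 10.32, 10.50, 11.58 and 11.84 on bone marrow, with 10.25, 9.68, 10.48 and 11.20 on lung, a difference of 1.09 ± 0.20 (2.13-fold). Its groups met only at lung P3, which lay just under bone marrow P2. Slc7a11, the antiporter that brings in cystine for glutathione, was at 8.06, 8.02, 8.54 and 8.84 on bone marrow against 7.27, 6.85, 7.73 and 9.89 on lung. Its difference of 1.20 ± 0.43 drew most on lung P4, the highest of the 8 arrays. Aldh3a1, an aldehyde dehydrogenase, differed by 0.70 ± 0.24. In the list of organic anion, steroid and detoxification genes that holds Akr1b8 and Aldh3a1, 28 genes passed the filter, 21 were higher late and 7 lower, 2 were higher at an unadjusted p under 0.05 and none lower, and none was called. The median was 0.11 against 0.02 over all genes, and it was -0.04 on bone marrow and 0.26 on lung.

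Secreted signals of leukocytes and platelets were also among the higher genes. Ppbp, a chemokine that platelets store, was at 5.57, 6.17, 8.01 and 6.89 on bone marrow, with 5.30, 5.32, 5.95 and 6.52 on lung. It was higher late in each tissue, by 1.26 ± 0.27 (2.39-fold), although lung P3 lay below bone marrow P2. Il33, an alarm cytokine of epithelial cells, was at 4.51, 4.47, 6.13 and 5.78 on bone marrow against 4.04, 4.91, 4.74 and 5.55 on lung, where the phases overlapped. The difference was 1.07 ± 0.26. Il33 lay below the filter limit of 7.3 on every bone marrow and lung array, and Ppbp on all of them but bone marrow P3. Whether such low levels mark expressed RNA was not tested. The neutrophil chemokines Cxcl5 and Cxcl1 and the granulocyte growth factor Csf3 were higher late by 0.57 ± 0.25, 0.43 ± 0.23 and 0.39 ± 0.39, and most of that came from lung, with 1.04, 0.72 and 1.21 against 0.11, 0.14 and -0.43 on bone marrow. Over the 27 genes of chemokine, cytokine and Toll-like receptor signalling, 15 were higher and 12 lower, with a median of 0.02, equal to that of all genes.

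Other genes were among the 12 with the lowest p. Loxl4, a lysyl oxidase that cross-links collagen, was higher by 0.80 ± 0.18, Tc2n by 0.85 ± 0.20 and the Golgi calcium pump Atp2c2 by 0.56 ± 0.14. The levels of Loxl4, 4.84 to 6.73, were below the filter limit of 7.3 on every bone marrow and lung array. The Mediator subunit Med18 and Mmd were higher by 0.45 ± 0.11 and 0.48 ± 0.12. A further 4 genes outside these 12 were chosen for the size of their difference after their values were seen. Pilra, Pilrb1 and Pilrb2, paired receptors of myeloid cells that lie side by side on chromosome 5, were higher by 1.08 ± 0.42, 1.13 ± 0.45 and 1.63 ± 0.49. They are related copies whose probes may share signal, so they count as 1 uncertain observation. Ly6d, a surface protein of epithelia, was higher by 1.52 ± 0.56, from 5.43, 5.84, 7.62 and 7.55 on bone marrow, with 4.84, 6.61, 5.50 and 8.13 on lung, where the phases overlapped.

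Adamts1, a metalloproteinase that cleaves proteoglycans, had the lowest p of the genes that were lower late. It was at 8.96, 8.38, 7.20 and 7.34 on bone marrow against 8.97, 8.68, 8.26 and 7.78 on lung. All 4 late arrays lay below all 4 early ones, by -1.10 ± 0.19 (2.15-fold lower; limma adjusted p = 0.6). Adamts5, its neighbour on chromosome 16 with no other gene between them in the RefSeq table, was at 8.08, 6.41, 4.47 and 5.32 on bone marrow, with 7.78, 6.96, 7.36 and 6.12 on lung. The difference was -1.49 ± 0.50, or -2.35 on bone marrow and -0.63 on lung, where P3 stayed above P2. Adamts8, on chromosome 9, differed by -0.86 ± 0.21 and Timp3, the Timp that binds to matrix, by -0.84 ± 0.33. Of the bone marrow and lung arrays, Adamts8 was above the filter limit of 7.3 only at lung P1, with 7.37. Timp3 was at 10.69, 9.70, 9.17 and 9.18 on bone marrow and, on lung, at 11.06, 9.72, 10.11 and 9.38, so that P1 carried most of its value. When late was set against P2 alone, an alternative chosen after seeing the data, the differences were -0.89 for Adamts1, -0.86 for Adamts5, -0.55 for Adamts8 and -0.25 for Timp3.

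Of the list of matrix proteases and their inhibitors, 16 genes passed the filter. At an unadjusted p under 0.05, Adamts1, Adamts5 and Timp3 were lower and Ctsl, a protease of lysosomes, was higher by 0.44 ± 0.13. Among the other members, Adam8, a membrane metalloproteinase, was higher by 0.80 (0.19 against P2 alone), and the list as a whole had 9 genes higher, 7 lower and a median of 0.04. The 17 collagens, laminins and other matrix proteins were also balanced, with 9 higher, 8 lower and a median of 0.06. Fn1, fibronectin, was at 10.48, 11.78, 9.92 and 10.31 on bone marrow against 10.90, 11.72, 10.21 and 11.43 on lung, a difference of -0.76 ± 0.36 in which P2 was the highest passage of each tissue.

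Several receptors and surface proteins were lower late as well. Npr3, which clears natriuretic peptides, was at 7.45, 6.39, 5.06 and 5.52 on bone marrow, with 7.71, 6.85, 6.15 and 5.57 on lung, without overlap, and differed by -1.52 ± 0.28 (2.87-fold lower). On bone marrow and lung it was above the filter limit of 7.3 only at P1, and the parental arrays, at 6.99 and 6.32, were below it. Sdc3, a heparan sulfate proteoglycan of the membrane, was lower at each later passage of each tissue, with 7.75, 7.36, 6.71 and 6.51 and then 8.40, 8.19, 7.91 and 7.11, for a difference of -0.86 ± 0.19. Sirpa, the receptor for Cd47, was at 7.62, 6.28, 5.12 and 4.62 on bone marrow against 7.4, 6.17, 7.16 and 5.36 on lung, where P3 was again above P2, and differed by -1.30 ± 0.52. On these arrays Sirpa too was above the filter limit only at P1. On lung, P3 was above P2 also for Cnmd, chondromodulin, at 8.49, 6.30, 4.96 and 5.61 on bone marrow, with 9.58, 7.71, 8.56 and 6.49 on lung, a difference of -1.62 ± 0.63. Stc2, a secreted glycoprotein of calcium and phosphate balance, was at 6.35, 5.78, 5.19 and 4.77 on bone marrow against 6.88, 5.69, 5.86 and 5.01 on lung and differed by -0.96 ± 0.29. All of these Stc2 levels were below the filter limit of 7.3. Epha4, a receptor for ephrins, differed by -1.0 ± 0.39 and Ptprk, a receptor phosphatase, by -0.40 ± 0.11, the latter without overlap, from 9.59 to 9.86 early against 9.28 to 9.37 late. P1 carried much of several of these values: against P2 alone they were -1.04 for Npr3, -0.66 for Sirpa, -0.60 for Cnmd, -0.52 for Stc2 and -0.29 for Epha4, and -0.71 for Sdc3 and -0.35 for Ptprk.

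Inside the cell, the lower genes included Rnd3, a small GTPase (-0.61 ± 0.17), Cald1, the actin-binding caldesmon (-0.43 ± 0.12), Pakap (-0.66 ± 0.18) and Trim30a (-0.60 ± 0.17). The phospholipase Pla2g4a, which frees arachidonic acid, and Ptgs2, the cyclooxygenase that makes prostaglandins from it, differed by -0.63 ± 0.18 and -1.03 ± 0.39. Ptgs2 was low at bone marrow P4 with 8.79 and at lung P3 with 8.29, and the other 6 arrays were between 9.89 and 10.59. Prss23, a serine protease, differed by -0.48 ± 0.14, and Nr4a2, an immediate-early nuclear receptor, by -0.50 ± 0.19, or -0.23 against P2 alone.

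**Figure D1:**
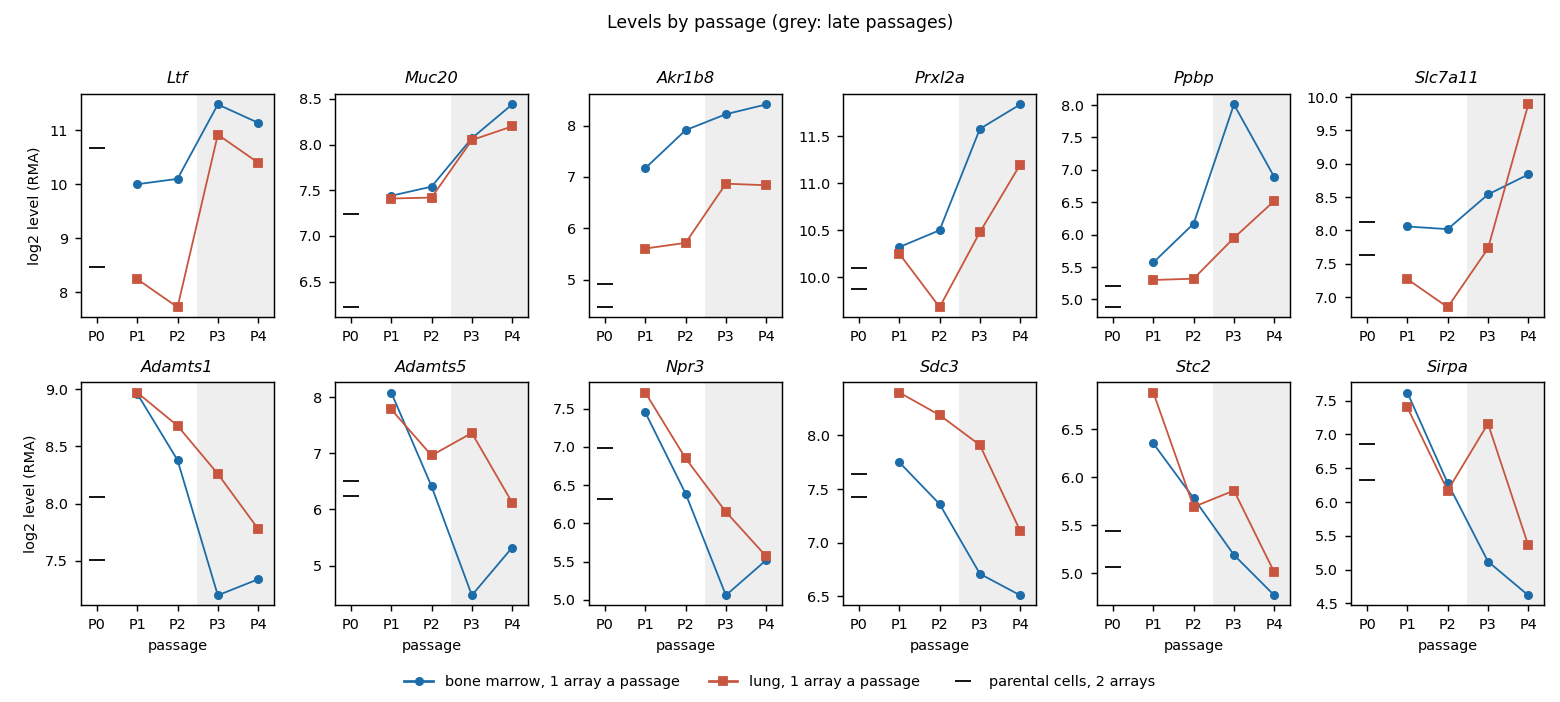
Log2 RMA level (vertical axis of each panel) of 12 genes at each passage (horizontal axis), with circles for bone marrow, squares for lung, 1 array each, dashes for the 2 parental arrays and grey for the late passages; vertical axes do not start at 0. Ltf and Muc20 lie above their early values at P3 and P4 in each tissue, Adamts1 and Npr3 below them, and for Adamts5 and Sirpa lung P3 lies above lung P2.

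The spread between repeat cultures gives a yardstick that the 8 arrays themselves lack. The 2 parental arrays and the 2 arrays of each of brain P1 to P4 were technical replicates started from cultures, and single genes differed between the arrays of a pair with an SD of 0.29 to 0.39 (log2). In the 5 pairs, 37 to 185 genes were 2-fold or more apart, against 25 genes for the late-early mean. The measures are unlike. A pair gap lies between single arrays, while the late-early difference lies between means of 4 arrays, in which the noise of single arrays is smaller. The counts and gaps therefore do not settle whether late-early differences exceed the noise of cultures. The late-early difference was larger than every one of the 5 pair gaps for 104 of all 7378 genes (1.41%), for 36 of the 161 genes at an unadjusted p under 0.05 (22.4%) and for 13 of the 25 genes at 2-fold or more (52%). A gene with a large late-early difference is more likely to exceed any fixed gap, so these shares only sort the genes. Npr3, Adamts5, Sirpa, Stc2, Ppbp, Akr1b8, Prxl2a and Slc7a11 exceeded their largest gaps, which were 0.66, 0.58, 0.52, 0.38, 0.53, 0.68, 0.87 and 0.68. Adamts1 exceeded its largest gap of 1.0 by little. Ltf, Muc20, Ptgs2 and Pilrb2 did not, with gaps of 2.63, 1.02, 2.31 and 1.99, and neither did Cxcl5, Cxcl1 and Csf3, with 3.10, 1.44 and 2.53.

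The late-early differences on bone marrow and on lung had little in common across genes. Their Pearson correlation was 0.112 and their Spearman correlation -0.032 over 7378 genes, which share arrays and are not independent replicates. The SD of the difference was 0.24 on bone marrow and 0.23 on lung. At a limit of 1.5-fold, 83 genes were higher late on bone marrow (1.12%) and 162 on lung (2.2%), and 26 of them were higher on both, that is 0.352% of the genes tested. In the other direction there were 133 genes on bone marrow (1.8%), 31 on lung (0.42%) and 17 on both (0.23%). At this limit bone marrow had more genes lower late and lung more genes higher late, and the median of all genes was -0.02 and 0.06.

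The test of the difference between the tissues called 0 genes by limma, with 158 genes at an unadjusted p under 0.05 (2.14%), and the smallest adjusted p was 1. The values with the lowest p are given as a description. Car6, a secreted carbonic anhydrase, differed by -0.18 on bone marrow and 0.92 on lung, and its levels on lung were 4.56, 4.54, 5.39 and 5.55. Flt1, a receptor for vascular growth factors, differed by -0.27 and 0.93, and Ckmt1, a mitochondrial creatine kinase, by -0.78 and 0.56. Ltf was also in this group, with 1.26 on bone marrow and 2.68 on lung. On the other side, Tmem171 was at 5.87, 6.08, 7.11 and 6.96 on bone marrow and between 5.53 and 5.79 on lung. Both Car6 and Tmem171 were below the filter limit of 7.3 on every bone marrow and lung array.

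**Figure D2:**
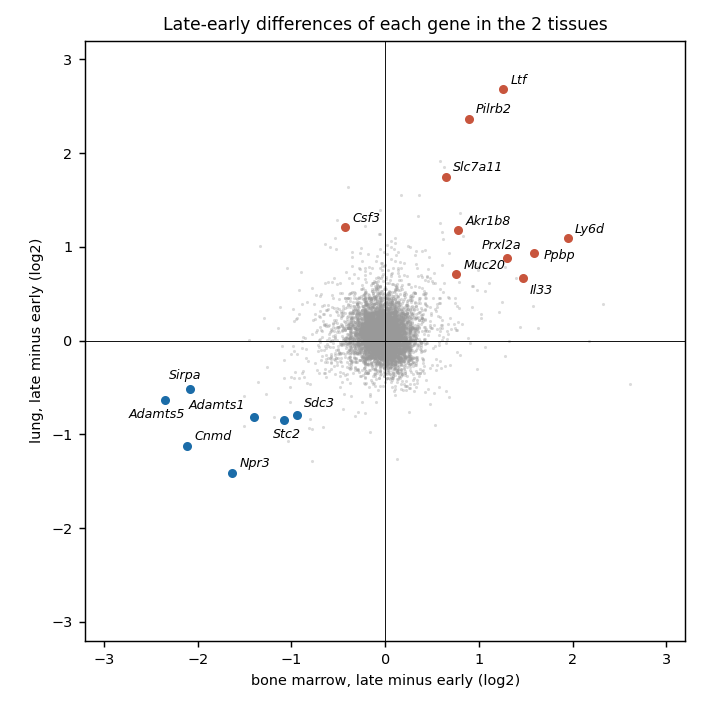
Late minus early difference (log2) of each of the 7378 genes on bone marrow (horizontal axis) and on lung (vertical axis), with named genes higher late in red and lower late in blue. The genes form a round cloud (Pearson correlation 0.112), Ltf, Pilrb2, Ly6d and Ppbp lie to the upper right, and Npr3, Cnmd and Adamts5 to the lower left.

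The passages were then taken step by step, with the 2 tissues as a block. Between P1 and P2, 539 genes reached an unadjusted p under 0.05 (7.31%), against 218 from P2 to P3 (2.95%) and 257 from P3 to P4 (3.48%), and limma called 0 genes at each step, with smallest adjusted p of 0.064, 0.72 and 0.74. The step from P2 to P3, at which late and early part, was thus the one with the fewest such genes. The largest early steps belonged to Padi2, an enzyme that turns arginine into citrulline, with 7.18 and 9.37 on bone marrow P1 and P2 and 6.17 and 8.82 on lung, and to Fosl1, a partner in AP-1, with 5.86 and 7.64 and then 5.09 and 7.22. Mcam, a cell adhesion molecule, and Maoa, monoamine oxidase A, had a P2 minus P1 of -1.90 and -1.68. The levels of Maoa, 4.68 to 6.72, were below the filter limit of 7.3 on every bone marrow and lung array. Mcam stood at 7.96, 6.21, 6.37 and 5.72 on bone marrow, with 8.37, 6.32, 6.50 and 6.04 on lung, so that its late-early difference of -1.06 ± 0.48 came mainly from P1 and was -0.11 against P2 alone. Of 59 genes recomputed in this way, 20 moved by over 1.5 times, and 17 of these became smaller in size, among them Cxcl1 with 0.09, Fosl1 with 0.06, Pgf with 0.61, Pilrb1 with 0.57 and Ly6d with 0.98. Tnip3, an inhibitor of NF-kappaB signalling, was higher at P4 than at P3 in each tissue, by 1.29 on average.

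Several genes that respond to low oxygen were highest at P3 on bone marrow and on lung. Cells sense oxygen through prolyl hydroxylases that mark the factor Hif1a for destruction. When oxygen falls, Hif1a stays and binds DNA at sites such as ACGTG. Egln3, one of those hydroxylases and itself induced, was at 8.90, 8.74, 10.05 and 8.80 on bone marrow against 8.76, 8.31, 10.28 and 8.41 on lung. Ero1a, which oxidises new proteins in the endoplasmic reticulum, was at 10.18, 10.21, 11.57 and 10.08 on bone marrow, with 9.71, 9.18, 10.40 and 9.71 on lung. Bnip3, a protein of mitochondrial turnover, was at 6.96, 6.48, 8.56 and 6.91 on bone marrow against 7.01, 7.62, 8.06 and 7.14 on lung. In each case P3 was the highest of the 4 passages of each tissue.

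The promoters of these 3 genes are shown because they had the highest P3 minus P2 differences in the list of glycolysis and the hypoxia response, with 1.64 for Egln3, 1.29 for Ero1a and 1.25 for Bnip3. Each is the RefSeq sequence of assembly GRCm38.p6 from 250 bases before to 50 bases after the start of the gene, at chr7:138909457-138909756 for Bnip3, chr12:54203825-54204124 for Egln3 and chr14:45318523-45318822 for Ero1a, all on the minus strand and written 5′ to 3′. Capitals mark ACGTG on either strand, and other forms of the site were not searched.
Bnip3: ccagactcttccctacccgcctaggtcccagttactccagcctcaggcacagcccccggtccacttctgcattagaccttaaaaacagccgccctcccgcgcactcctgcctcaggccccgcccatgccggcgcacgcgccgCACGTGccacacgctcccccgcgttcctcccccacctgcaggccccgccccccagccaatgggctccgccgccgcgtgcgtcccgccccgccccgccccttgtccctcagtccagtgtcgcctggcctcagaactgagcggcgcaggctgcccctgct
Egln3: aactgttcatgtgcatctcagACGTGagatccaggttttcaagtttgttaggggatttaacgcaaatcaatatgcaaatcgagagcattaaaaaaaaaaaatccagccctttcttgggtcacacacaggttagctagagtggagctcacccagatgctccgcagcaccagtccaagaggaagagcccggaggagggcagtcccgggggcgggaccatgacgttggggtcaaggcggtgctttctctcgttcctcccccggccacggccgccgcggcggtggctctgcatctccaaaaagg
Ero1a: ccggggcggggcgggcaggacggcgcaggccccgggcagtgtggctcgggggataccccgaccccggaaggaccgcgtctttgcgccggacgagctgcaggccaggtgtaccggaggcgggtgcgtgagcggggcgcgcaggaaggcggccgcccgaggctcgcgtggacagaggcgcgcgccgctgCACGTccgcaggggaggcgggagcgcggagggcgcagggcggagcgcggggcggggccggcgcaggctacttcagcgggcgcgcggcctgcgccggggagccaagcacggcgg
The Bnip3 window holds the letters on both strands at 1 place, so its 2 matches overlap, and they begin 108 bases before the start. Those of Egln3 and Ero1a hold 1 match each, 229 and 63 bases before the start. Over all 32851 promoter windows of this length 6447 hold the letters (19.6%), and 19 of the 29 windows of the list do (65.5%), which belong to 17 of the 21 genes with a window. The list was drawn up from genes of glycolysis and the hypoxia response, so its higher share is no result of these arrays. A match describes the sequence and shows no binding.

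Of 23 genes of glycolysis and the hypoxia response that passed the filter, P3 was the highest passage on bone marrow for 16, on lung for 15 and on both for 12 (52.2%), against 198 of all 7378 genes on both (2.68%). Slc2a1, a glucose transporter, was not among them, with 11.07 at P2 as its highest value on bone marrow and 10.64 at P4 on lung, and Vegfa, a vascular growth factor, was highest at P3 on bone marrow, with 7.90, and at P4 on lung, with 7.44. Hk2 of the list and, outside it, Pgf and Ak4 are shown as further genes with a peak at P3, chosen for it after their values were seen. Pgf, placental growth factor, was at 8.46, 9.27, 10.14 and 9.26 on bone marrow, with 7.85, 8.52, 9.92 and 8.70 on lung. Ak4, a mitochondrial adenylate kinase, was at 8.74, 9.0, 9.62 and 8.46 on bone marrow against 7.87, 8.37, 9.21 and 7.10 on lung. Hk2, the hexokinase that starts glycolysis, was at 6.82, 7.48, 7.76 and 7.42 and then 6.47, 6.32, 7.11 and 6.71. P3 was the highest passage of each tissue for all 3.

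Of the 32 genes of the list of glycolysis and the hypoxia response, 29 were measured and 23 passed the filter. Late against early, 19 were higher and 4 lower, only Hk2 had an unadjusted p under 0.05 (0.48 ± 0.17), none was called, and the median was 0.15 against 0.02 over all genes. By step the medians were 0.00 from P1 to P2, 0.24 from P2 to P3 and -0.37 from P3 to P4. Relative to the mean of the 8 arrays, the list medians on bone marrow were 0.05, 0.05, 0.31 and -0.04 at P1 to P4 and on lung -0.24, -0.14, 0.11 and -0.20. The parental arrays differed from each other in the same genes, with a list median of 0.36 between them and levels of 8.56 and 10.21 for Egln3, 6.94 and 8.48 for Bnip3 and 9.57 and 10.36 for Ero1a. For Egln3 and Bnip3, a gap of the size of the P3 step was therefore seen between 2 cultures of the parental cells, and no single passage on bone marrow or lung had a repeat culture.

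**Figure D3:**
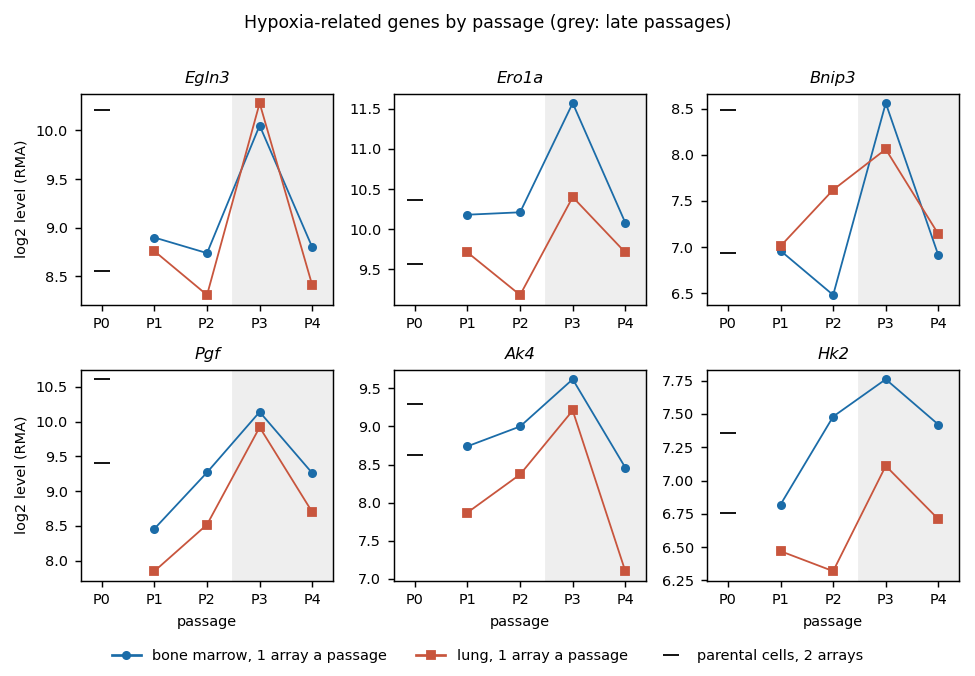
Log2 RMA level (vertical axis) of 6 genes linked to low oxygen at each passage (horizontal axis), with circles for bone marrow, squares for lung, 1 array each, dashes for the 2 parental arrays and grey for the late passages; vertical axes do not start at 0. P3 is the highest passage on each tissue in all 6 panels, and for Egln3 and Bnip3 the 2 parental arrays lie about as far apart as P3 and P4.

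Among the remaining lists of pathway genes no member was called late against early, and the medians stayed close to that of all genes. Cholesterol synthesis and uptake had the highest median, 0.16, with 16 of 19 genes higher and none at an unadjusted p under 0.05. Msmo1, a sterol oxidase, was higher by 0.34. That median was 0.00 on bone marrow and 0.35 on lung, it was 0.45 when late was set against P2 alone, and the 2 parental arrays were apart by a median of 0.49 in these genes. For p53 targets and cell death, 16 of 18 genes were higher with a median of 0.11. Mdm2, the ligase that p53 induces against itself, had the lowest p there, with 0.43 ± 0.17, and its levels were 8.93, 9.24, 9.89 and 9.33 on bone marrow, with 8.60, 8.56, 8.68 and 9.16 on lung.

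Antigen presentation and the immunoproteasome lay at the other end, with 1 of 12 genes higher, 11 lower and a median of -0.15. The immunoproteasome subunits Psmb8, Psmb9 and Psmb10 differed by -0.24, -0.18 and -0.30. The list ran differently in the tissues: its median relative to the mean of the 8 arrays was 0.01, -0.21, -0.59 and -0.23 at bone marrow P1 to P4 and 0.17, 0.34, 0.16 and 0.31 on lung. Of 7 genes of bone turnover, 6 were lower and 1 higher (median -0.12), and of these Stc2 alone had an unadjusted p under 0.05. The machinery of division and energy differed little, with a median of -0.01 for 34 genes of mitosis, -0.04 for 33 of DNA replication and 0.00 for 33 of the respiratory chain.

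**Figure D4:**
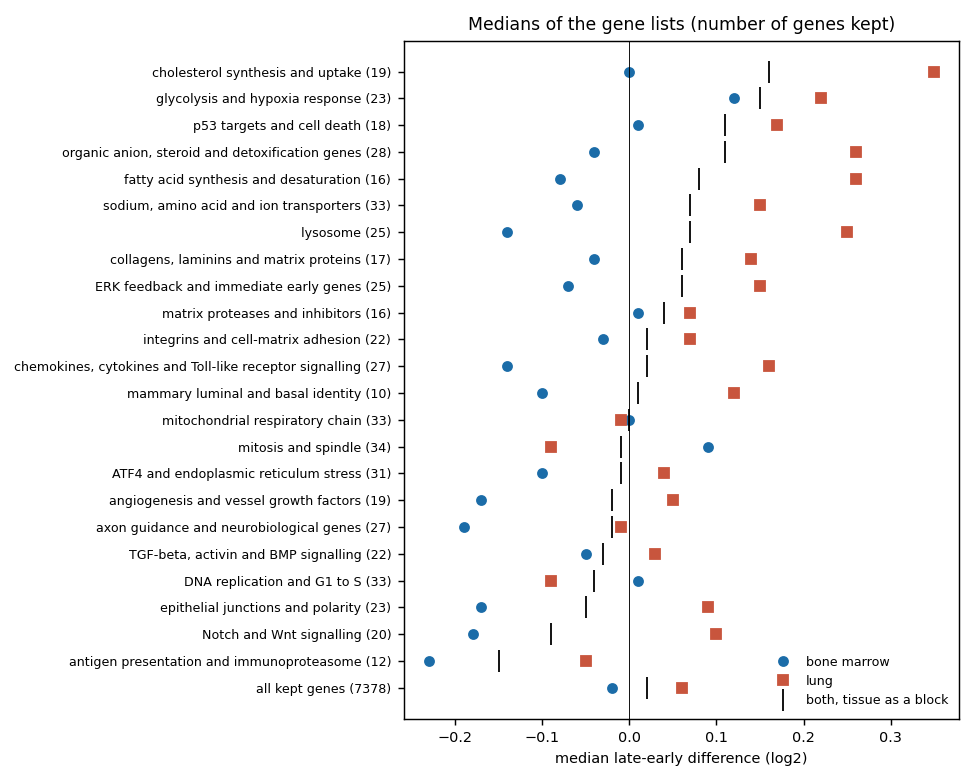
Median late minus early difference (log2, horizontal axis) of each gene list with its number of genes, for bone marrow (circles), lung (squares) and both with tissue as a block (bars). The medians of both tissues run from -0.15 for antigen presentation to 0.16 for cholesterol synthesis, and lung lies to the right of bone marrow for most lists, as it does for all 7378 genes (0.06 and -0.02).

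Genes of 2 chromosomes leaned the same way, given here as medians without a test. On chromosome 19, 88.4% of 285 genes were higher late, with a median of 0.12, and on chromosome 15, 81.5% of 297 genes, with a median of 0.11, against 55.6% and 0.02 over all genes. The shares on bone marrow and on lung were 71.9% and 84.2% for chromosome 19, 72.1% and 78.5% for chromosome 15, and 41.4% and 62.1% for the 6793 genes elsewhere. Relative to the parental cells and to the median of all genes, chromosome 15 stood at 0.06, 0.30, 0.29 and 0.29 at bone marrow P1 to P4 and at -0.08, 0.12, 0.00 and 0.17 on lung. Chromosome 19 stood at -0.21, -0.09, -0.01 and -0.02 on bone marrow and at -0.33, -0.16, -0.25 and -0.04 on lung, lowest at P1 in each tissue. When late was set against P2 alone, the median was -0.01 for chromosome 15 and 0.05 for chromosome 19, so the P1 arrays carried much of both values. Npr3 and Ly6d lie on chromosome 15 and Loxl4, Il33 and Fosl1 on chromosome 19. Their differences were several times the shift of their chromosome, and that of Npr3 ran against it.

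**Figure D5:**
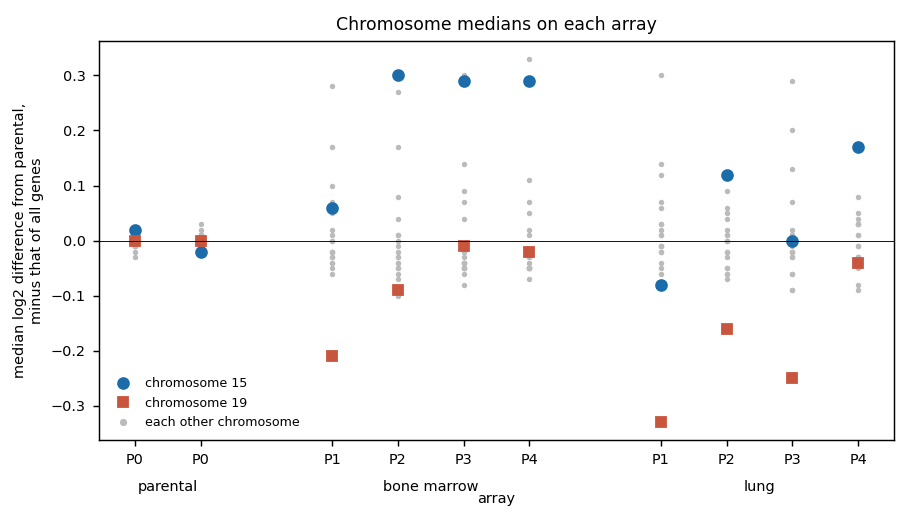
Median log2 difference of the genes of each chromosome from the mean of the parental arrays, less that of all genes (vertical axis), on the 2 parental arrays and at each passage on bone marrow and lung (horizontal axis). Chromosome 15 (circles) is at 0.29 to 0.30 on bone marrow from P2 on, and chromosome 19 (squares) is lowest at P1 on each tissue, with -0.21 and -0.33.

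The course on bone marrow and lung was set against the same passages on brain, whose 2 arrays per passage were averaged first. The spread on brain was larger: the SD of their late-early difference was 0.63 over genes against 0.17 for the mean of bone marrow and lung, and 562 genes differed 2-fold or more against 25. Averaging 2 tissues narrows such values. For bone marrow and lung each alone, the SD was 0.24 and 0.23, and 49 and 36 genes differed 2-fold or more. The interaction of phase and brain was called by limma at an adjusted p under 0.05 for 234 genes (3.17%), with the brain difference above for 98 (1.33%) and below for 136 (1.84%). With the array medians made equal the split was 159 and 123, and with cyclic loess 151 and 125. Medians of some chromosomes were shifted on early brain. Relative to the parental cells and all genes, chromosome 4 stood at -0.57 to -0.52 on brain P1 and P2. On brain P3 and P4 it stood at 0.06 to 0.09. Chromosome 14 went from -0.34 to -0.26 early to 0.01 to 0.26 late. With chromosome medians subtracted the split was 65 and 107. Sdc3 and Car6, named below, lie on chromosome 4, and the part of these shifts in single genes was not tested. At the top of these calls stood genes with small differences on bone marrow and lung. Gpx2, a glutathione peroxidase of epithelia, went from a mean of 11.52 to 5.75 on brain and differed by 0.41 on bone marrow and lung. Col8a1, a short-chain collagen, went from 5.46 to 10.52 on brain and differed by 0.48 on bone marrow and lung, where it was already at 9.97 to 10.94 on the early arrays.

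Of the other genes with a late-early difference in the text, 14 had a called difference from brain. Timp3, Sdc3 and Sftpd were among the genes picked for naming by this same test. The count is therefore no result about the named genes. Timp3 was lower late on bone marrow and lung, from 10.29 to 9.46 in mean level, and higher late on brain, from 5.18 to 9.78, a difference between the courses of 5.44 (limma adjusted p = 4e-04), although the lower late level on bone marrow and lung rested mostly on P1. Adamts1 was again opposite, with -1.10 on bone marrow and lung and 1.69 on brain (adjusted p = 0.0071), as were Sdc3, with -0.86 and 2.64 (adjusted p = 0.0057), and Npr3, with -1.52 and 0.79 (adjusted p = 0.025). In the other direction, Ltf was at 1.97 and -1.90 (adjusted p = 0.009), Il33 at 1.07 and -2.47 (adjusted p = 0.01), Tc2n at 0.85 and -2.82 (adjusted p = 0.009) and Sftpd, the surfactant protein D of lung epithelium, at 0.86 and -3.46 (adjusted p = 0.0026). Since the level on brain was early far from that on bone marrow and lung for Timp3 and Sftpd (5.18 and 9.48 against 10.29 and 5.80), the late arrays of the tissues lay closer together than the early ones. Psmb8 and Psmb9 were among the calls too, with brain above by 3.17 and 1.60 (adjusted p of 0.0031 and 0.027), and so was Car6, with brain below by a value of -3.15 (adjusted p = 0.0012). Like Gpx2, the genes Il33 and Car6 reached the filter limit on early brain but on no bone marrow or lung array. The calls of these genes are therefore no independent support for a difference between the tissues. Akr1b8 was higher late on all 3 tissues, with 3.15 on brain, and its difference from brain was not called (limma adjusted p = 0.069). Stc2 and Sirpa were lower late on brain also, by -1.28 and -2.91, and their differences from brain were not called, with adjusted p of 0.79 and 0.33.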

How the data were processed

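Affymetrix Mouse Gene 1.0 ST arrays were hybridised with total RNA of sorted and cultured N202 cells. The authors made the deposited log2 values with RMA, in the Expression Console of Affymetrix, which subtracts background, forces the arrays onto 1 distribution and summarises the probes of a set by median polish, and so narrows differences between whole arrays. The values were used as deposited. The genome build of the processing is not given in the sources used here.

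Of 34760 probe sets, 21640 had 1 gene symbol in the platform annotation, 1321 several and 11799 none, and 21553 were found in RefSeq. Probe sets whose largest group mean was at least 7.3 were kept (10638), in place of the comparison with negative control probes in the study. Of 19937 genes, 954 had more than 1 probe set, and the brightest on average stood for the gene, which left 7378 genes.

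Late and early arrays (n = 4 and 4) were compared in R 4.3.3 with limma 3.58.1, two-sided, with tissue as a block and 5 residual and 3.9 prior degrees of freedom. The p-values were adjusted by Benjamini-Hochberg over all kept probe sets, at a threshold of 0.05, and measure the spread between successive passages. Named genes were the 12 with the lowest p in each direction, the leading genes of each list and further fit, Erbb2 and genes discussed in the paper, plus genes singled out for size or course after their values were seen. Genes and lists were chosen with earlier results of these data known.

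The alternatives comprised dropping the filter, raising it to 8, equal array medians, cyclic loess, subtracted chromosome medians, a variance trend with robust estimation, no block, a linear passage term, all 21 arrays in 1 model, brain arrays entered singly, and leaving out each array. The fits were tested on simulated data. Arrays give no read depth, and their number limits the precision. Plots used Python 3.11.15, numpy 2.4.6, pandas 2.3.3 and matplotlib 3.10.9.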

Additional observations from a re-analysis of the deposited data

Results flagged for a closer look

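The late-early difference on brain was tested against that on bone marrow and lung. Limma called 16 of the 59 genes recomputed with a late-early value in the text, at an adjusted p under 0.05. Over all 7378 genes it called 234 (3.17%). Gpx2, Col8a1, Timp3, Sdc3 and Sftpd were among the genes picked for naming by this same test. The 2 counts can therefore not be compared. The values are brain minus bone marrow and lung on the log2 scale. The brain difference was lower for Gpx2 (-6.18), Sftpd (-4.32), Ltf (-3.87), Tc2n (-3.67), Il33 (-3.54), Car6 (-3.15) and Atp2c2 (-1.74). It was higher for Timp3 (5.44), Col8a1 (4.58), Sdc3 (3.50), Psmb8 (3.17), Adamts1 (2.79), Npr3 (2.31), Prss23 (2.09), Aldh3a1 (1.94) and Psmb9 (1.60). The calls of Npr3, Aldh3a1 and Psmb9 were lost under some alternatives, which are given below. Gpx2, Il33 and Car6 met the filter on early brain arrays but on no bone marrow or lung array.

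On the late arrays, Atp2c2 at lung P3, with 7.67, lay apart from the other 3, which were at 7.93 to 7.99. It was the only such case in the 118 groups of 4 arrays that were examined, and chance gives about 1 in 20.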

How the results depend on the processing

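Late against early, limma called 0 genes under every alternative run except the model of all 21 arrays, which called 4: Ppbp higher late (1.26, adjusted p = 0.048) and Npr3 (-1.52), Adamts5 (-1.49) and Sirpa (-1.30) lower, each at an adjusted p of 0.047. At an unadjusted p under 0.05 there were from 99 genes without a block to 430 with a linear passage term. Leaving out each array in turn gave 0 genes each time. For the difference between lung and bone marrow it also gave 0 genes, while 1 probe set without a single gene symbol passed without lung P2 (adjusted p = 0.0065) and 2 such without lung P3 (smallest adjusted p = 0.0022). Of the 59 genes recomputed with a late-early value in the text, Erbb2 alone changed sign, to 0.06 without bone marrow P2, 0.16 without bone marrow P3 and 0.03 without lung P4, in a range of -0.27 to 0.16. Equal array medians and cyclic loess moved the median of all genes from 0.02 to -0.01 and 0.

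The calls of the difference from brain, 98 above and 136 below, became 38 and 57 without a filter, 159 above with equal array medians, 151 above with cyclic loess, 65 above with chromosome medians subtracted, and 250 and 346 with brain arrays entered singly. Leaving out an array gave 61 to 106 above and 73 to 169 below, lowest without lung P4, and the count above was also 61 without bone marrow P4 and 63 without bone marrow P1. Npr3 was not called without a filter, with chromosome medians subtracted or without lung P4 (adjusted p = 0.1, 0.062 and 0.056), nor were Aldh3a1 in 10 and Psmb9 in 6 of their alternatives. No paired analysis was possible for late against early because each passage on bone marrow and lung has 1 array. For brain, the number of the array as a replicate block, chosen after seeing the data, gave 270 above and 382 below; the correlations of the pair differences were 0.098 to 0.355 over 6 pairs of passages, all above 0, and the labels tie the numbers to no shared day or batch.

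Without both P1 arrays, an alternative also chosen after seeing the data, the median was 0.45 for cholesterol synthesis and -0.01 for chromosome 15. Leaving out each array, the medians ran from 0.03 to 0.33 for cholesterol synthesis, 0.04 to 0.17 for p53 targets, 0.04 to 0.20 for glycolysis and hypoxia, 0.03 to 0.20 for detoxification, -0.22 to -0.04 for antigen presentation, 0.06 to 0.16 for chromosome 15 and 0.07 to 0.17 for chromosome 19. The cause of these movements was not tested.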
